A study of Mus musculus with 6 samples.

Results

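Osteoprotegerin and osteoclast lineage genes are here 7 genes chosen by name: Tnfrsf11b, Tnfrsf11a, Mmp9, Dcstamp, Atp6v0d2, Ctsk and Acp5. All 7 were found by symbol among the 15634 genes listed, and all 7 were among the 15547 genes with enough counts to be tested. The RNA was that of mesenchymal stem cells grown out of bone marrow (MSCs, adherent stromal cells that can form bone, fat and cartilage) of wild-type C57BL/6J mice, with no transgene or deletion in either group. The TNF group holds 3 libraries of cells given TNF-α, an inflammatory cytokine, at 10 ng/mL for 24 h, and the Control group holds 3 libraries of unstimulated cells. All cells were kept in α-MEM with 15% fetal bovine serum. Whether the 3 libraries of a group stem from separate mice or dishes is not in the labels. The p-values therefore reflect library-to-library spread alone, and that spread may be technical.

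Osteoclasts are large cells that arise by fusion of macrophage-lineage precursors and resorb bone. Stromal cells and osteoblasts steer this process with RANKL, which binds its receptor RANK (Tnfrsf11a) on the precursors, and with osteoprotegerin (Tnfrsf11b), a secreted decoy receptor that binds RANKL and keeps it from RANK. Among the other genes, Dcstamp encodes a membrane protein needed for fusion of the precursors, and Atp6v0d2 encodes an isoform of the d subunit of the vacuolar proton pump that osteoclasts express strongly. Ctsk encodes cathepsin K, the main collagen-digesting protease of osteoclasts, Mmp9 a gelatinase, and Acp5 the tartrate-resistant acid phosphatase TRAP by which osteoclasts are stained. Several of these genes are not private to osteoclasts: macrophages and neutrophils can make Mmp9, and stromal cells can make cathepsin K.

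After 24 h of TNF-α the 7 genes went in opposite directions. Osteoprotegerin, RANK, Atp6v0d2 and Ctsk fell in TNF, by between 0.34 and 1.12 on the log2 scale, while Mmp9 rose by 4.69 and Dcstamp by 2.09. Acp5 had a fitted log2 fold change of 1.07 on very few reads and did not pass the test. The quasi-likelihood test of edgeR, with adjustment over all genes by Benjamini-Hochberg, thus called 2 of the 7 higher and 4 lower at an adjusted p under 0.05, a background at which 32.4% of all tested genes were called, 16% higher and 16.4% lower. The CPM values (counts scaled to library size) of the TNF and Control groups did not overlap for any of the 7 genes, with TNF above Control for 3 and below it for 4. Of all tested genes 48.8% had no overlap, 24% with TNF above and 24.7% with TNF below. The genes were chosen with earlier results of these data known, so these counts describe them and are not set against chance.

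Total counts lay between 45629973 and 55149746 in the TNF libraries and between 54141846 and 77142418 in the Control libraries. TNF library 2 stood apart with 19.4% of its counts from 18S ribosomal RNA, against at most 3.55% in the other libraries, and Control library 2 stood apart with 4.45% of its counts from mitochondrial mRNAs, against at most 2.16% in the others. Leaving out both of these libraries gave log2 fold changes of -1.21 for Tnfrsf11b, -0.65 for Tnfrsf11a, 4.99 for Mmp9, 2.13 for Dcstamp, -0.76 for Atp6v0d2, -0.27 for Ctsk and 1.05 for Acp5, with the same 6 genes called. Of all calls, 49.4% were higher in TNF with TMM factors and 38.5% when libraries were scaled by their totals.

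**Figure D1:**
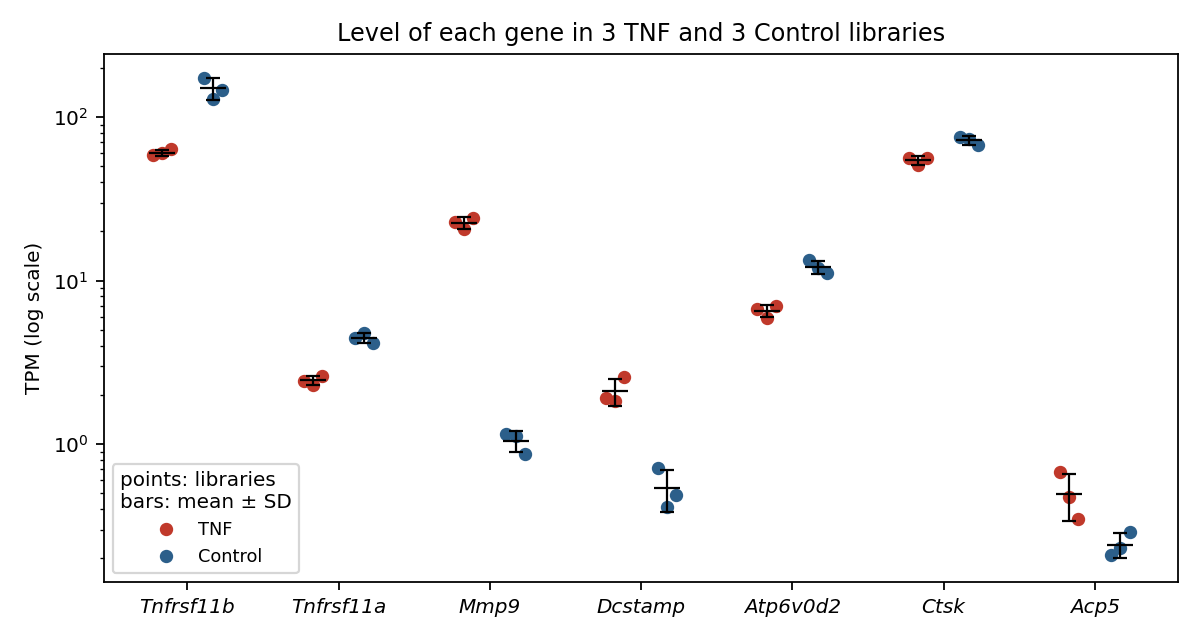
Level of each of the 7 genes in TPM (scaled to transcript length and library size, log axis) in 3 TNF libraries (red, left of each pair) and 3 Control libraries (blue, right), with black bars for the mean ± SD. Mmp9 moved most, at 20.8 to 24.3 TPM in TNF and 0.868 to 1.15 TPM in Control, and Acp5 was the lowest of the 7 in both groups.

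TPM divides by transcript length, so it allows levels of different genes to be set side by side. In the TNF libraries the order by mean TPM was Tnfrsf11b at 60.6 ± 2.56 (SD, n = 3, as in the rest of the order), Ctsk at 54.3 ± 3.20, Mmp9 at 22.6 ± 1.80, Atp6v0d2 at 6.54 ± 0.561, Tnfrsf11a at 2.45 ± 0.156, Dcstamp at 2.11 ± 0.402 and Acp5 at 0.498 ± 0.162. In the Control libraries it was Tnfrsf11b at 150.0 ± 22.1, Ctsk at 72.3 ± 4.59, Atp6v0d2 at 12.1 ± 1.13, Tnfrsf11a at 4.45 ± 0.309, Mmp9 at 1.05 ± 0.155, Dcstamp at 0.537 ± 0.155 and Acp5 at 0.243 ± 0.0422. Tnfrsf11a and Dcstamp overlapped in TNF, and no other neighbours in either order did. Mmp9 thus had rank 3 in TNF and rank 5 in Control. Osteoprotegerin was the most abundant of the 7 transcripts in both groups, but its lead over Ctsk was narrow in TNF, where the lowest Tnfrsf11b value was 58.4 and the highest Ctsk value 56.3 TPM.

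Osteoprotegerin, the decoy receptor (Tnfrsf11b, ENSMUSG00000063727), had 88.1, 106 and 97.7 CPM in TNF libraries 1, 2 and 3, and 229, 205 and 203 CPM in Control libraries 1, 2 and 3. All 3 TNF libraries were far below all 3 Control libraries. The log2 fold change was -1.12 ± 0.10 (SE), a level 2.18-fold lower in TNF (adjusted p = 5.56e-05 by edgeR). In bulk RNA, fewer cells that express a gene and less RNA per cell cannot be told apart, for this gene and for those that follow.

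RANK, the receptor of RANKL (Tnfrsf11a, ENSMUSG00000026321), had 5.77, 6.21 and 6.28 CPM in TNF libraries 1, 2 and 3, and 9.88, 12.2 and 9.14 CPM in Control libraries 1, 2 and 3. The TNF values lay close together, and Control library 2 was the highest of the 6. RANK was 1.71-fold lower in TNF, with a log2 fold change of -0.78 ± 0.13 (adjusted p = 0.00168 by edgeR). RANKL itself (Tnfsf11) was not among the tested genes, so the ligand of both receptors is not analysed here.

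Both RANKL-binding receptors fell in TNF, osteoprotegerin by the larger fitted amount. RANK TPM amounted to 4.17%, 3.84% and 4.12% of osteoprotegerin TPM in TNF libraries 1, 2 and 3, and to 2.57%, 3.67% and 2.82% in Control libraries 1, 2 and 3. On this scale the groups did not overlap, but Control library 2 came close to TNF library 2. The log2 ratio averaged -4.63 ± 0.06 in TNF and -5.07 ± 0.27 in Control (SD, n = 3 each), a difference of 0.44 with p = 0.1 in a two-sided exact permutation test, the smallest p that 3 against 3 libraries allow. In CPM the groups overlapped, because Control library 2 stood at 5.97% and TNF library 2 at 5.85%, and the exact permutation p was 0.2. With 3 libraries a group this ratio could not pass 0.05, and whether the groups overlap depended on the unit.

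Gelatinase B (Mmp9, ENSMUSG00000017737) had 38.6, 42.9 and 43.9 CPM in TNF libraries 1, 2 and 3, and 1.11, 2.17 and 1.51 CPM in Control libraries 1, 2 and 3. All TNF libraries were far above all Control libraries, which held 66, 164 and 86 counts. The fitted log2 fold change was 4.69 ± 0.21 (adjusted p = 1.14e-06 by edgeR), or 25.8-fold, and its absolute size exceeded that of 99.5% of tested genes. It was 3.53 on the log2(TPM + 1) scale, where the pseudocount shrinks the change of a gene near 1 TPM in Control.

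Neutrophils are a marrow cell rich in Mmp9, and their markers were low in both groups. Of 12 neutrophil markers, 5 were listed, and Elane, Mpo, Ltf and Ly6g, which define the granule and surface proteins of these cells, were not among the tested genes. The summed level of the 5 was 4.19 to 5.20 CPM in TNF and 2.40 to 2.98 CPM in Control, with Csf3r, also expressed outside neutrophils, as the top contributor in all 6 libraries. Of the 4 that were tested, Camp (3.53) and S100a8 (1.93) rose on the log2 scale, each with a mean under 2 CPM in TNF. The part of such cells in the rise of Mmp9 was not tested.

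The fusion protein gene Dcstamp (ENSMUSG00000022303) had 1.87, 1.92 and 2.02 CPM in TNF libraries 1, 2 and 3, and 0.386, 0.463 and 0.510 CPM in Control libraries 1, 2 and 3. These values rest on 94, 75 and 116 counts in TNF and 23, 35 and 29 counts in Control. The groups were well apart and tight on the CPM scale. The log2 fold change was 2.09 ± 0.20 (adjusted p = 8.07e-05 by edgeR), and the ratio of summed counts scaled to library size was 4.29 (exact Clopper-Pearson 95% interval 3.36 to 5.51, for counting error only). On the log2(TPM + 1) scale it was 1.01, with all 3 Control values under the pseudocount of 1. Ocstamp, the other fusion gene of this kind, was not among the tested genes.

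The proton pump subunit gene Atp6v0d2 (ENSMUSG00000028238) had 9.33, 9.63 and 9.94 CPM in TNF libraries 1, 2 and 3, and 17.6, 18 and 15.2 CPM in Control libraries 1, 2 and 3. It was 1.76-fold lower in TNF, with groups that did not overlap (log2 fold change -0.82 ± 0.10, adjusted p = 0.000273 by edgeR). Atp6v0d1, which encodes the isoform of the same subunit found in most cells, had 169 ± 11.1 CPM in TNF and 186 ± 7.87 CPM in Control (SD, n = 3 each) and was not called (log2 fold change -0.14 ± 0.09, adjusted p = 0.270 by edgeR).

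Cathepsin K (Ctsk, ENSMUSG00000028111) had 43.9, 46 and 44.3 CPM in TNF libraries 1, 2 and 3, and 55.9, 62.7 and 51.3 CPM in Control libraries 1, 2 and 3. The TNF libraries agreed closely and the Control libraries spread more widely above them. The fall was the smallest of the 4, a log2 fold change of -0.34 ± 0.09 (adjusted p = 0.0202 by edgeR). The call was lost in repeats that left out TNF library 1 (adjusted p = 0.0879), TNF library 3 (0.0549) or Control library 1 (0.0552), and the log2 fold change stayed between -0.40 and -0.26 over all repeats without 1 library.

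TRAP (Acp5, ENSMUSG00000001348) had only 23, 15 and 15 counts in TNF libraries 1, 2 and 3, and 8, 13 and 12 counts in Control libraries 1, 2 and 3. Scaled to library size this was 0.458, 0.383 and 0.262 CPM in TNF and 0.134, 0.172 and 0.211 CPM in Control. All TNF values were above all Control values, though TNF library 3 lay near Control library 3. The log2 fold change of 1.07 ± 0.36 was not called (adjusted p = 0.0511 by edgeR), and it was called without TNF library 3 (log2 fold change 1.28, adjusted p = 0.0376). The scaled ratio of summed counts was 2.10 (exact Clopper-Pearson 95% interval 1.34 to 3.35), an interval that leaves out the spread between libraries. The gene by which osteoclasts are stained was thus close to the limit of these libraries in both groups, and Calcr, the calcitonin receptor of mature osteoclasts, was not among the tested genes.

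**Figure D2:**
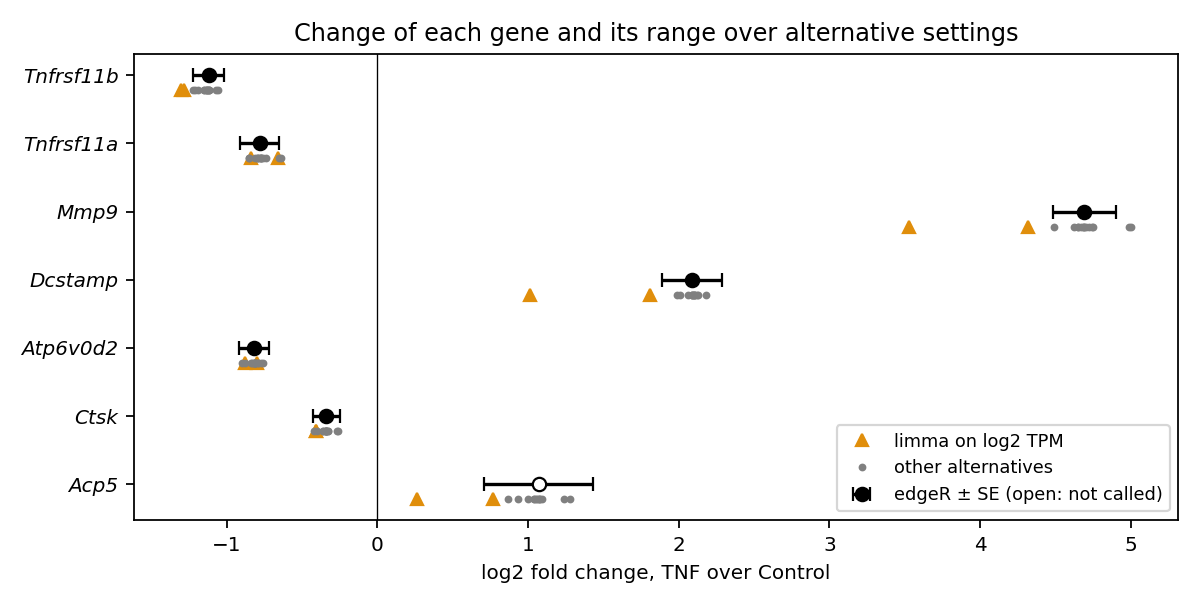
Fitted log2 fold change of TNF over Control for the 7 genes by edgeR (circles with SE bars, open where not called), with orange triangles for limma on log2 TPM and grey dots for the other alternative settings. No gene changes sign under any setting plotted, and the triangles lie nearer to 0 than the circle for Mmp9, Dcstamp and Acp5.

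Promoter windows from RefSeq (build GRCm38.p6, 250 bases before to 50 after the start of the gene) were at hand for 3 of the 7 genes. Those of Tnfrsf11a and Ctsk are shown because both genes were called lower in TNF and their windows differ in composition. Tnfrsf11a lies at chr1:105780473-105780772 on the plus strand and Ctsk at chr3:95498960-95499259 on the plus strand. These coordinates are of that build and not of GRCm39, to which the reads were mapped. Capitals mark matches, on either strand, to a loose NF-kB core (GGG and CC with any 5 bases between them), AP-1 (TGANTCA), the PU.1 core (GAGGAA), the NFAT core (GGAAA) and an E-box bound by MITF (CACATG).
Tnfrsf11a: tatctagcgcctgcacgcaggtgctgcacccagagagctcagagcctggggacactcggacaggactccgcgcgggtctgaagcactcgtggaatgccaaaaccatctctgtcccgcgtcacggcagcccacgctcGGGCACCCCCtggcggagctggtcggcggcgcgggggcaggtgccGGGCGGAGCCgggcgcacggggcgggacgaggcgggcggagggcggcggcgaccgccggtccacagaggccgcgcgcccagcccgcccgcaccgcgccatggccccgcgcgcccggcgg
Ctsk: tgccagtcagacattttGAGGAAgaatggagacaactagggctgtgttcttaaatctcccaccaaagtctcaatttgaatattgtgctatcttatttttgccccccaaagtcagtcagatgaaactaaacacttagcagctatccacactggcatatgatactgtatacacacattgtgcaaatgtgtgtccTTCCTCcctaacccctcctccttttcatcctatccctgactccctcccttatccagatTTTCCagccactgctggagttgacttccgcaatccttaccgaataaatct
The Tnfrsf11a window is 76.7% G and C and holds 2 matches, both to the loose NF-kB core. The Ctsk window is 43.7% G and C and holds 2 matches to the PU.1 core and 1 to the NFAT core. No matches overlap each other in these windows, although a PU.1 core followed by A contains the NFAT core. Among 32851 RefSeq promoter windows of this length, 50.8% hold the loose NF-kB core, 7.81% AP-1, 28.3% the PU.1 core, 61.3% the NFAT core and 14.2% the E-box, so such matches are common and describe only these letters. For Acp5 the table gives 3 starts, and the E-box occurs in 1 of the 3 windows.

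The cells in which these genes changed were not determined. All 14 MSC and stromal markers were tested, and their summed level was 12252 to 12869.5 CPM in TNF and 19304 to 24357 CPM in Control. The collagen genes Col1a2, at 5865 ± 224 CPM in TNF and 9647 ± 752 CPM in Control, and Col1a1, at 3938 ± 109 CPM in TNF and 8204 ± 1686 CPM in Control (SD, n = 3 each), made up most of that sum and of its difference. Of the 14 markers 3 were called higher and 5 lower. Cd44, an adhesion receptor, rose by 1.27 on the log2 scale, Pdgfra, a growth factor receptor, by 1.03 and Lepr, the leptin receptor, by 1.68. Lepr was low, at 1.55 ± 0.33 CPM in TNF and 0.475 ± 0.197 CPM in Control, and rose by 0.44 on the log2(TPM + 1) scale. Kitl, or stem cell factor, fell by 1.46. The rest of the lower count was Col1a1 (log2 fold change -1.06), Thy1 (-0.92), Col3a1 (-0.82) and Col1a2 (-0.72). The calls of Thy1 and Col3a1 were lost with limma on either log2 TPM scale, and that of Col1a2 with the replicate block. Thy1 also lost its call without TNF library 1, TNF library 2 or replicate 2 of both groups. Of 21 macrophage and monocyte markers, 18 were listed and tested, with a summed level of 2401 to 2495 CPM in TNF and 2546 to 3830.2 CPM in Control. The upper end is Control library 2 alone, and Control libraries 1 and 3, at 2592 and 2546 CPM, lay close to the TNF libraries. Lyz2, which encodes lysozyme, made up 35.0% to 39.1% of the sum in TNF and 42.7% to 46.9% in Control. Macrophage marker transcripts were thus present in both groups of cultures labelled as MSCs. Of these 18 markers 3 were called higher and 9 lower, with a median log2 fold change of -0.54, against -0.005 over all genes tested. Over all genes tested 16% were called higher and 16.4% lower. The higher count of the macrophage markers was 5 without Control library 2. Csf1r, the receptor that macrophages and osteoclast precursors need for survival, had 322 ± 23.5 CPM in TNF and 251 ± 7.27 CPM in Control (SD, n = 3 each; log2 fold change 0.36, adjusted p = 0.0182 by edgeR). That call was lost under 7 of 16 alternatives, namely without TNF library 1, Control library 1 or Control library 3, with scaling by library totals, with the replicate block and with limma on either log2 TPM scale. C1qc, a complement gene of tissue macrophages, fell by 1.46 on the log2 scale and Cx3cr1, a chemokine receptor, by 1.95. The rest of the lower count was C1qb, Mrc1, C1qa, Cd68, Mertk, Aif1 and Laptm5, with log2 fold changes from -1.35 to -0.56. The calls of Aif1 and Laptm5 were each lost under 4 of 16 alternatives, and the lower count was 7 to 10 without 1 library. In contrast Cybb, of the phagocyte oxidase, rose by 2.26 and Cd14, a lipopolysaccharide co-receptor, by 1.13. Markers of this lineage thus did not move together.

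Set against the summed macrophage markers of the same library, Mmp9 CPM came to 1.61%, 1.72% and 1.76% in TNF libraries 1, 2 and 3, and to 0.0428%, 0.0567% and 0.0594% in Control libraries 1, 2 and 3. Dcstamp came to 0.0779%, 0.0768% and 0.0811% in TNF, and to 0.0149%, 0.0121% and 0.0200% in Control. Both stayed far higher in TNF, with differences of 5.02 and 2.36 on the log2 scale. RANK came to 0.240%, 0.249% and 0.252% in TNF and 0.381%, 0.319% and 0.359% in Control. Atp6v0d2 came to 0.389%, 0.386% and 0.398% in TNF and 0.679%, 0.471% and 0.598% in Control. These genes were lower in TNF on this scale too, by 0.51 and 0.56 on the log2 scale, without overlap. Ctsk came to 1.83%, 1.84% and 1.78% in TNF and 2.16%, 1.64% and 2.02% in Control, so that its groups overlapped (difference -0.08, exact permutation p = 0.5). For every gene but Ctsk the two-sided exact permutation p was 0.1, the smallest the design allows, so none could pass 0.05. Set against Csf1r alone, the difference was -0.69 for Ctsk, and the groups then overlapped for Acp5 instead (difference 0.72, exact permutation p = 0.2). Osteoprotegerin, which stromal cells make, was lower in TNF by 0.87 on the log2 scale against the marker sum (-0.87). The marker sum and Csf1r share their libraries with the genes set against them.

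**Figure D3:**
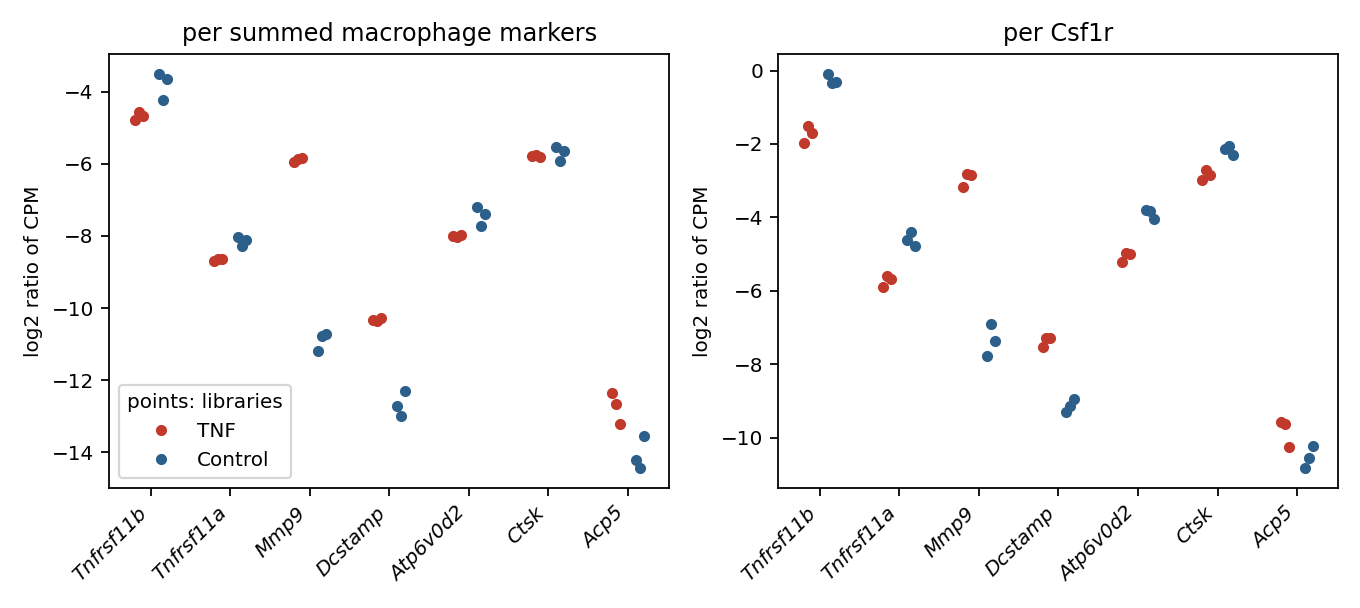
Log2 ratio of each gene's CPM to the summed CPM of the macrophage markers (left) and to Csf1r CPM (right), with 3 TNF libraries (red, left of each pair) and 3 Control libraries (blue, right). The groups overlap only for Ctsk in the left panel and only for Acp5 in the right panel.

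Receptors, adaptors and transcription factors of osteoclast precursors were called in both directions. Of 24 tested genes 9 were called higher and 3 lower, with a median log2 fold change of 0.23. Over all tested genes 16% were called higher and 16.4% lower, and the list was not tested as a set. Tfec, a relative of the osteoclast factor MITF, rose to 6.12 ± 0.471 CPM in TNF, against 1.18 ± 0.0785 CPM in Control (SD, n = 3 each; log2 fold change 2.37 ± 0.13 SE). Pilra, an inhibitory receptor of myeloid cells, rose by 1.83 and Syk, a kinase downstream of immune receptors, by 0.54. Spi1, which encodes PU.1, the master factor of the myeloid lineage, had 60.7 ± 1.53 CPM in TNF and 45.3 ± 1.76 CPM in Control (log2 fold change 0.42, adjusted p = 0.00247 by edgeR), a call that scaling by library totals or log2 TPM removed. Bcl6, a repressor of osteoclast genes, fell by 0.59 (adjusted p = 0.000387 by edgeR). Trem2 (log2 fold change -0.91) and Lgr4 (-0.26) made up the rest of the lower count, and the call of Lgr4 was lost under 11 of 16 alternatives. Nfatc1, the master transcription factor that RANK signalling induces in osteoclasts, had 30.2 ± 1.11 CPM in TNF and 33.2 ± 4.35 CPM in Control and was not called (log2 fold change -0.14 ± 0.10, adjusted p = 0.332). Irf8, which restrains osteoclast formation, stood at 18.6 ± 1.38 CPM in TNF and 18.6 ± 0.866 CPM in Control (adjusted p = 0.991). Oscar, a collagen receptor of osteoclasts, was near the limit of detection at 0.347 ± 0.0268 CPM in TNF and 0.273 ± 0.112 CPM in Control (adjusted p = 0.535). The higher count was 5 with scaling by library totals and 4 with limma on log2 TPM.

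Genes of osteoclast fusion and resorption went both ways, as the 7 genes did. Of 19 tested, 5 were called higher and 5 lower, with a median log2 fold change of 0.00. Over all tested genes 16% were called higher and 16.4% lower. Snx10, a sorting nexin that osteoclasts need to resorb bone, rose to 137 ± 3.85 CPM in TNF, against 43.2 ± 3.46 CPM in Control (SD, n = 3 each; log2 fold change 1.66 ± 0.09 SE, adjusted p = 2.62e-06 by edgeR). Tcirg1, the a3 subunit of the osteoclast proton pump, rose to 299 ± 26.5 CPM in TNF, against 108 ± 21.7 CPM in Control (log2 fold change 1.46 ± 0.15), and Cd47, a surface ligand that takes part in macrophage fusion, rose by 0.99. Itgb3, the beta chain of the integrin by which osteoclasts attach to bone, fell to 7.16 ± 0.280 CPM in TNF, against 15.6 ± 0.380 CPM in Control (log2 fold change -1.12 ± 0.08, adjusted p = 2.00e-05 by edgeR). Car2, the carbonic anhydrase that supplies protons for resorption, fell by 2.89 from a low level, with 3, 3 and 6 counts in TNF libraries 1, 2 and 3 and 51, 45 and 23 counts in Control libraries 1, 2 and 3. Car2 fell by 0.58 on the log2(TPM + 1) scale. The rest of the lower count was Slc9b2 (log2 fold change -1.3), Cst6 (-1.12) and Sirpa (-0.81). Pstpip2 (0.89) and Clcn7 (0.47) made up the rest of the higher count. The call of Slc9b2 was lost under 7 of 15 alternatives and that of Clcn7 under 3 of 16.

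The other subunits of the proton pump and its accessory proteins were called in both directions. Of 20 tested, 5 were called higher and 2 lower, where the median log2 change was 0.11. Over all tested genes 16% were called higher and 16.4% lower, and the difference between Atp6v0d2 and the other subunits was not tested. Tcirg1, given above, rose most, followed by Atp6v0c (0.49), Atp6v0b (0.47), Atp6v1d (0.31) and Atp6v1c1 (0.25). Except for Tcirg1 these small rises were not called with scaling by library totals, which left a higher count of 1. Atp6ap1 (-0.46) and Atp6v0a4, which had 3 counts over the TNF libraries and 42 over the Control libraries (scaled ratio 0.0934, exact Clopper-Pearson 95% interval 0.0185 to 0.292), made up the lower count. That lower count was 1 without TNF library 1, TNF library 2, Control library 1 or Control library 2, and the higher count was 2 without TNF library 1 or Control library 1 and 3 without TNF library 2, TNF library 3 or Control library 3.

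A list of signals that favour or restrain osteoclasts, with some of their receptors, had the highest median of these lists. Besides signals that stromal cells can send, it holds the cytokines Tnf, Il1b and Osm and the receptors Tnfrsf1a, Tnfrsf1b and Ptger4. Which cells of the cultures made these RNAs was not determined. Of 22 tested, 14 were called higher and 4 lower, and the median log2 fold change was 1.29. Over all tested genes 16% were called higher and 16.4% lower. The list was chosen with earlier results of these data known, so its counts are not set against chance. Those that rose include Csf1, the growth factor of osteoclast precursors, at 2079.7 ± 61.7 CPM in TNF and 691 ± 10.0 CPM in Control, and Ptgs2, the inducible prostaglandin synthase, at 84.2 ± 9.77 CPM in TNF and 18.6 ± 1.73 CPM in Control (SD, n = 3 each). Ptges, which acts after Ptgs2 in prostaglandin E synthesis, rose by 2.54 on the log2 scale, Il6 by 6.32 and Ccl2 by 6.84. Il6 had only 9, 11 and 9 counts in Control libraries 1, 2 and 3, and it rose by 3.98 on the log2(TPM + 1) scale. Sfrp1, Efnb2, Wnt5a and Sema3a made up the lower count. Osteoprotegerin fell in the same libraries.

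**Figure D4:**
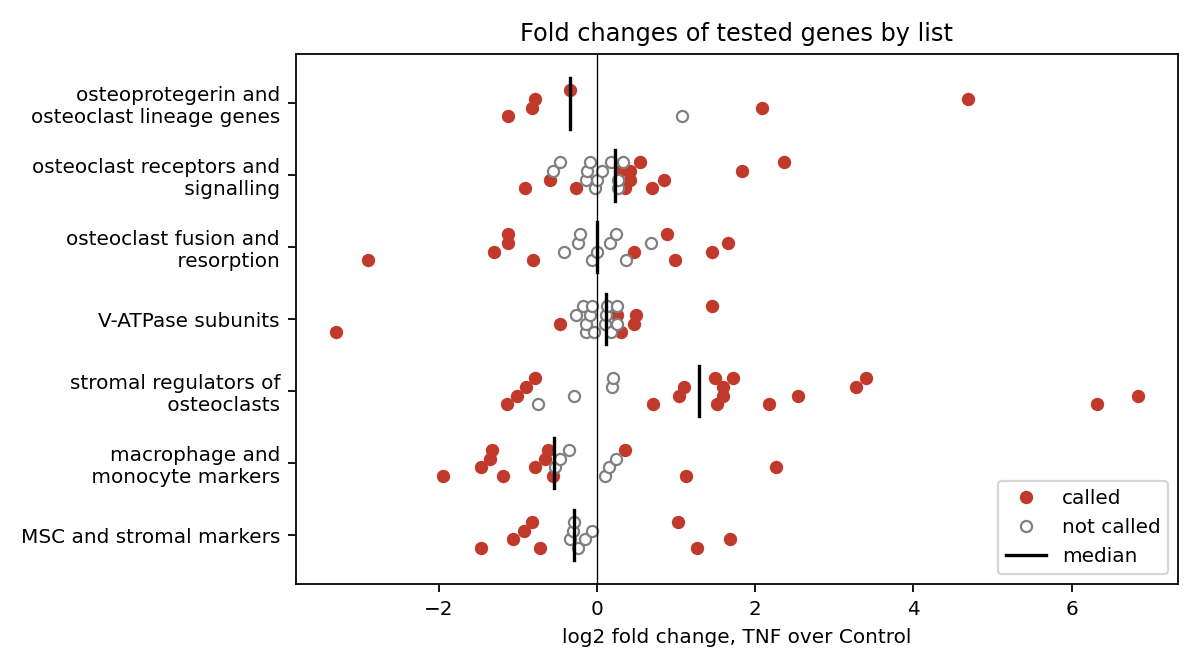
Log2 fold change of TNF over Control for every tested gene of 7 lists, filled where called and open where not, with a black line at each list's median. The osteoprotegerin and osteoclast lineage genes and the fusion and resorption genes lie on both sides of 0, while the list labelled stromal regulators has its median at 1.29.

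Genes whose pattern over the 6 libraries was most like each of the 7 were found by the root mean square difference of log2 CPM centred on each gene's mean, among 10849 genes of mean CPM at least 5. Nearest to osteoprotegerin were Atp2b4 (0.0737), Pdgfc (0.0787) and Cped1 (0.0812). Nearest to RANK were Sort1 (0.0275), Msrb3 (0.0392) and Mmp17 (0.0423). Nearest to Mmp9 were Gbp3 (0.212), C3 (0.236) and Gm12250 (0.253), and to Dcstamp D630003M21Rik (0.0910) and Mt1 (0.0931). Gcnt4 (0.0162), Wwp1 (0.0329) and Arhgap18 (0.0461) came nearest to Atp6v0d2. For Ctsk they were Lmnb2 (0.0200), 1810013L24Rik (0.0275) and Aak1 (0.0320), and for Acp5 Artn (0.140), Gm49342 (0.160) and Syt17 (0.175). These distances describe the same 6 libraries and carry no test.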

How the data were processed

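The authors deposited 2 files per library, expected counts per gene (whole numbers, with no gene column) and TPM with gene symbols. Per the submitters' processing notes the tools were Trim Galore, STAR, StringTie and Salmon with genome build GRCm39, with no versions or roles given, and per the labels the SMART-Seq Stranded Kit was used. The title line of the count files calls the values normalized and the column name calls them raw. Totals differ between libraries, so the deposited expected counts were used as counts. Count lines were joined to TPM lines by position: all 260 zeros of the counts fell on zeros of the TPM, and log2(count/TPM) of a gene had a median SD of 0.028 across libraries, which became 0.414 when lines were moved by 1. Every listed gene had at least 10 counts in at least 3 libraries, so genes below this are not analysed here.

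The count model was edgeR 4.0.16 under R 4.3.3, run on all genes after filterByExpr with TMM factors (glmQLFit, glmQLFTest, two-sided) and no covariate beside group, with Benjamini-Hochberg adjustment over 15547 genes and a threshold of 0.05. CPM uses the TMM factors. The SE is the absolute log2 fold change over the square root of F and is approximate. The fit was run on simulated data with known changes in a small part of the genes and the same spread for every gene. That run checks the code and does not bear on how the calls here depend on scaling. Ratios between genes were compared by exact permutation in SciPy 1.17.1. Alternatives were RLE factors, library totals, DESeq2 1.42.0, limma-voom and limma 3.58.1 on log2(TPM + 1) or log2(TPM + 0.1), other filters, a replicate block and the omission of single libraries. Leaving out replicate 2 of both groups was chosen after seeing the data.

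The 7 genes and the 8 other lists were chosen with earlier results of these data known, and no list was tested as a set. The rule for naming genes took, by smallest adjusted p, up to 4 called genes per list and a fixed set of 12 genes, plus members of small counts. For likeness, the 3 nearest genes were taken for each of the 7, and 1 of these genes is not reported here. Of the 6 endothelial markers, 2 were tested and both were called lower. The call of Kdr was lost under 7 of 15 alternatives and that of Vwf under 9 of 15. Kdr rested on 3, 4 and 6 counts in the TNF libraries and 16, 16 and 18 in the Control libraries. Of the 14 MSC and stromal markers 3 were called higher and 5 lower. Over all tested genes 16% were called higher and 16.4% lower. Exact intervals cover counting error only, because they pool the counts of each group and leave out the spread between libraries. PCR copies of a molecule are not independent, so these intervals may be too narrow even for counting error.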

Additional observations from a re-analysis of the deposited data

How the results depend on the processing

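The direction of all 7 genes was the same under the 16 alternatives that could be fitted (15 for Dcstamp and Acp5, which a filter at a mean of 5 CPM removes), and Tnfrsf11b, Tnfrsf11a, Mmp9, Dcstamp and Atp6v0d2 were called in each. Without 1 library at a time, the log2 fold change of Ctsk ranged from -0.40 to -0.26 and that of Acp5 from 0.87 to 1.28. Acp5 was called only without TNF library 3. Deviations from the group means of same-numbered libraries correlated at -0.011, -0.304 and -0.221, and those of differently numbered libraries at -0.23 to 0.355. The labels do not say whether the replicate numbers pair the libraries, and with 3 libraries a group these correlations cannot decide it. With the replicate number as a block, 3980 genes were called in all and Ctsk (adjusted p = 0.0378 by edgeR) and Acp5 (0.130) stayed on the same side of the threshold. Over all genes the number called higher was 1612 with library totals, 1477 on log2(TPM + 1) and 1470 on log2(TPM + 0.1), against 2489. For receptors and signalling the higher count of 9 was 5, 4 and 4 under these settings. For proton pump subunits the higher count of 5 was 1 under each of them, 2 with the replicate block and 2 to 4 without 1 library, and the lower count of 2 was 1 with RLE factors, limma-voom, log2(TPM + 1) or the replicate block and 1 to 2 without 1 library. The lower count of fusion and resorption genes was 3 with a filter at a mean of 5 CPM, which tests fewer genes. The higher count of macrophage markers was 2 to 5 without 1 library and 5 without replicate 2 of both groups, and the lower count of stromal markers was 3 on both log2 TPM scales. With Csf1r in place of the marker sum, differences were -1.48 for Tnfrsf11b, -1.12 for Tnfrsf11a, 4.41 for Mmp9, 1.75 for Dcstamp, -1.17 for Atp6v0d2, -0.69 for Ctsk and 0.72 for Acp5. All 7 genes are divided by the same quantity, so this swap moved every difference by the same amount and is 1 result, not 7. The cause of the other differences between settings was not tested. Depth limits Acp5, with at most 23 counts in a library.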

Other observations

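The count and TPM files placed Control library 1 differently for Mmp9 and Dcstamp. Control library 1 held the fewest counts of both genes among the Control libraries, 66 for Mmp9 and 23 for Dcstamp, yet the highest TPM, 1.15 and 0.711. After removal of each library's median, log2(count/TPM) in Control library 1 lay 0.66 below the gene's mean over the 6 libraries for Mmp9 (-0.66) and 0.59 below for Dcstamp (-0.59). The SD of this quantity over the 6 libraries was 0.324 for Mmp9 and 0.335 for Dcstamp, against 0.008 for Atp6v0d2 and 0.010 for Ctsk. The TPM ratio of TNF to Control was 21.64 for Mmp9 and 3.93 for Dcstamp, against 25.8 and 4.26 in the fit of the counts.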
